A study of Mus musculus with 6 samples.

Results

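The leucine-rich, glioma-inactivated (LGI) genes Lgi1, Lgi2, Lgi3 and Lgi4 and the genes of their receptors, Adam11, Adam22 and Adam23, were followed in brain RNA of Angptl2-/- and Angptl2+/+ mice. The 7 genes were chosen by symbol, as the 4 LGI ligand genes and the 3 ADAM genes whose products bind them, from 54532 Ensembl gene identifiers. All 7 were measured, and all 7 are among the 14862 genes with a mean of at least 0.5 FPKM over the 6 libraries, a filter that does not look at genotype.

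LGI proteins are secreted, carry leucine-rich repeats and a ring of EAR (epitempin) repeats, and bind the extracellular part of ADAM11, ADAM22 and ADAM23, relatives of the ADAM proteases that have lost the catalytic residues and act as adhesion receptors. At synapses, LGI1 bridges ADAM22 and ADAM23, and the tail of ADAM22 holds membrane-associated guanylate kinases such as PSD-95, which in turn hold AMPA receptors. Along myelinated axons LGI proteins and ADAM receptors take part in placing Kv1 potassium channels, and in peripheral nerve LGI4 from Schwann cells signals through axonal ADAM22 to start myelination.

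The study asked which genes act downstream of ANGPTL2, a secreted angiopoietin-like protein, in oligodendrocyte differentiation. RNA of brain tissue, with all its cell types, at postnatal day 15 was sequenced from 3 Angptl2-/- and 3 Angptl2+/+ samples on a C57BL/6 background. The Angptl2-/- mice lack exon 2 of Angptl2 and derive from fathers with floxed Angptl2 and Stra8-cre, a Cre driver of the male germ line, mated with wild-type females, and the Angptl2+/+ mice are the wild type. The labels do not say whether brains were pooled or that each sample came from another mouse, so the p-values measure the spread between these samples, which may be technical. The deposited values are FPKM, fragments per kilobase of gene scaled to library depth, and levels of different genes are compared here only on this scale, per length. In RNA of whole tissue, fewer cells of a type and less RNA per cell cannot be told apart.

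By the steps of the FPKM values, 17127276 to 18928921 fragments were assigned to genes in each library. Angptl2 itself was at 0.166, 0.320 and 0.126 FPKM in Angptl2-/- replicates 1, 2 and 3, against 0.660, 0.958 and 0.290 FPKM in Angptl2+/+ replicates 1, 2 and 3, so that Angptl2-/- replicate 2 lay above Angptl2+/+ replicate 3. Neuronal and glial markers were abundant in every library (Snap25 at 172.6 to 299.6 FPKM, for example). Libraries did not hold the same mixture of tissue. Summed choroid plexus markers were at 104.0 to 937 FPKM in Angptl2-/- and 1.64 to 7.39 FPKM in Angptl2+/+, and cerebellum markers and myelinating oligodendrocyte markers were highest in Angptl2+/+ replicate 1. All 5 red blood cell markers were lower with an unadjusted p below 0.05, as were 9.12% of all genes tested. They summed to 124.8 to 274 FPKM in Angptl2-/- and 302 to 498 FPKM in Angptl2+/+. Endothelium markers summed to 44.6 to 55.5 FPKM in Angptl2-/- and 64.3 to 67.2 FPKM in Angptl2+/+. Neither sum overlapped, and 11.8% of single genes tested lay wholly below in Angptl2-/-. Of the 4 endothelium markers, Cldn5 alone (60.5% GC in its longest transcript) lay wholly below. The Y-linked gene Ddx3y was detected in Angptl2-/- replicates 1 and 3 and, among the Angptl2+/+ libraries, in replicate 3 alone, so sex was not balanced, and no test adjusts for it.

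No LGI or ADAM receptor gene passed the test between genotypes. Lgi3, Lgi4 and Adam11 had the lower mean in Angptl2-/- brains, by 35.2%, 38.0% and 34.0%, and Lgi1, Lgi2, Adam22 and Adam23 had means at most 17.7% above those of Angptl2+/+ brains. The test was limma on log2(FPKM + 0.1), two-sided, with Benjamini-Hochberg adjustment over the 14862 genes. The adjusted p of the 7 genes lay between 0.273 and 0.938, and 0 of the 14862 genes (0%) had an adjusted p under 0.05. With an unadjusted p below 0.05 there were 1054 genes higher and 1355 lower in Angptl2-/-, and limma's voom on the recovered fragments also gave 0 adjusted calls, with 1123 higher and 1310 lower unadjusted. Of the 7 genes, 2 (Lgi3 and Adam11) were lower at that unadjusted threshold, where 9.12% of all genes tested were, and 0 were higher, where 7.09% were. In 1 of the 7, Adam11, every Angptl2-/- library lay below every Angptl2+/+ library, as in 11.8% of all genes tested, and 0 lay wholly above, as 10.7% did. The median log2 fold change of the 7 genes was 0.03, and that of all genes tested was 0.00.

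**Figure D1:**
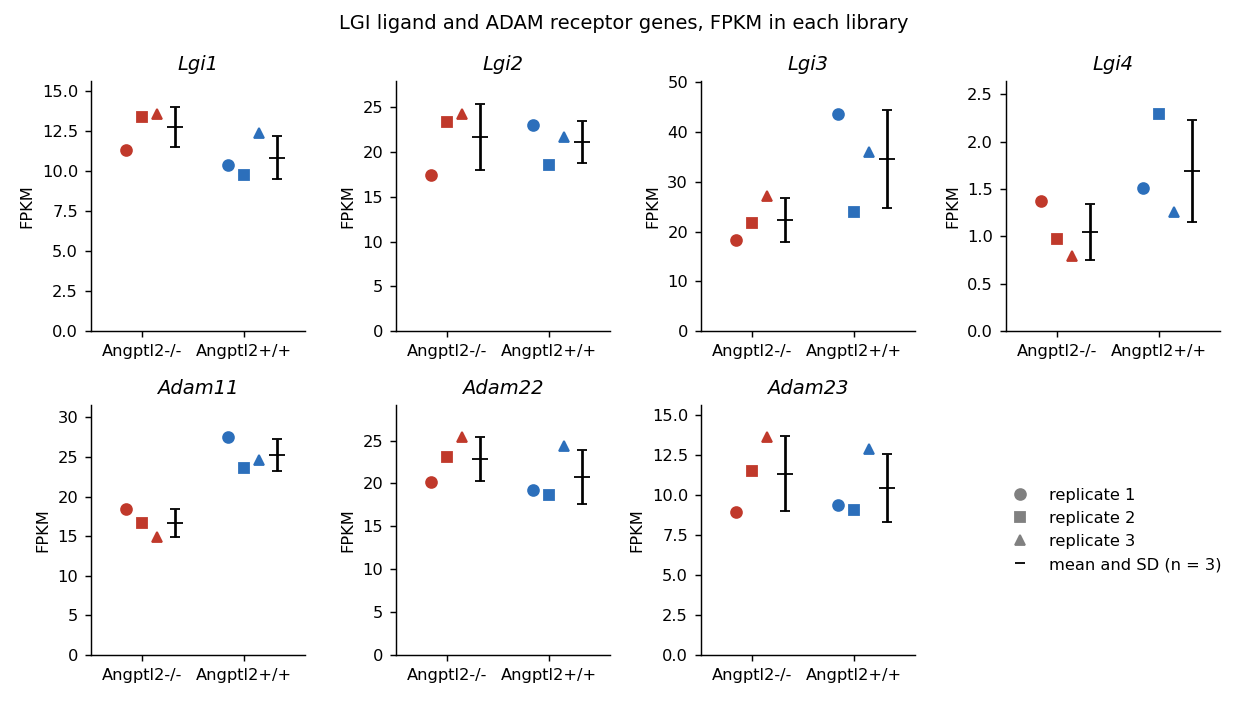
FPKM of each LGI ligand and ADAM receptor gene (vertical axis, from 0) in the 3 Angptl2-/- libraries (red, left) and the 3 Angptl2+/+ libraries (blue, right), with marker shapes for replicate numbers and black bars for mean and SD. Adam11 alone shows no overlap between the genotypes, and the Lgi3 values of Angptl2+/+ spread from 24.0 to 43.7 FPKM.

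Lgi1 encodes a neuronal protein of the synapse, and its human counterpart is mutated in autosomal dominant lateral temporal lobe epilepsy and is a target of antibodies in limbic encephalitis. The gene (ENSMUSG00000067242) lies at chr19:38264536-38312214 on the plus strand of GRCm38. Lgi1 was at 11.3, 13.4 and 13.6 FPKM in Angptl2-/- replicates 1, 2 and 3, against 10.4, 9.77 and 12.4 FPKM in Angptl2+/+ replicates 1, 2 and 3. The Angptl2-/- libraries were mostly the higher ones, but Angptl2+/+ replicate 3 exceeded Angptl2-/- replicate 1, so the groups overlapped. The means were 12.7 ± 1.25 FPKM in Angptl2-/- and 10.8 ± 1.35 FPKM in Angptl2+/+ (SD, n = 3 each), which makes a log2 fold change of 0.24 ± 0.13 (SE; limma adjusted p = 0.396, two-sided exact permutation p = 0.2, where the smallest possible is 0.1). Its coefficient of variation between samples was 9.79% in Angptl2-/- and 12.5% in Angptl2+/+. A processed pseudogene on chromosome 15, Gm3888, and an antisense gene, Gm42723, share 11.3% of the 75-base stretches of its transcripts, and both were below 1 FPKM in every library.

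Lgi2 encodes another neuronal LGI protein, and its dog counterpart is mutated in a juvenile epilepsy of the Lagotto Romagnolo breed. The gene (ENSMUSG00000039252, chr5:52533517-52566462, minus strand) was at 17.5, 23.4 and 24.3 FPKM in the Angptl2-/- libraries, against 23.0, 18.6 and 21.7 FPKM in the Angptl2+/+ libraries. The lowest and the highest of the 6 values were both from Angptl2-/-. Means were 21.7 ± 3.70 FPKM in Angptl2-/- and 21.1 ± 2.29 FPKM in Angptl2+/+ (SD, n = 3 each), and the log2 fold change of 0.03 ± 0.16 (SE) was smaller than its error (limma adjusted p = 0.938, exact permutation p = 0.8). The sign of this value turned when Angptl2-/- replicate 2, Angptl2-/- replicate 3 or Angptl2+/+ replicate 2 was left out (lowest value −0.059).

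Lgi3 encodes an LGI protein that, in mouse brain, oligodendrocytes secrete and that binds ADAM23 beside the nodes of myelinated axons, where Kv1 channels gather. The gene (ENSMUSG00000033595) lies at chr14:70530685-70538324 on the plus strand. Lgi3 was at 18.4, 21.7 and 27.1 FPKM in Angptl2-/- replicates 1, 2 and 3, against 43.7, 24.0 and 36.0 FPKM in Angptl2+/+ replicates 1, 2 and 3. The 2 highest libraries were Angptl2+/+ and the 2 lowest Angptl2-/-, but Angptl2-/- replicate 3 lay above Angptl2+/+ replicate 2. The mean was 22.4 ± 4.42 FPKM in Angptl2-/- and 34.6 ± 9.90 FPKM in Angptl2+/+ (SD, n = 3 each), with a log2 fold change of −0.60 ± 0.24 (SE; limma unadjusted p = 0.0386, adjusted p = 0.290, exact permutation p = 0.2). Without Angptl2+/+ replicate 1, the library with the most Lgi3, the log2 fold change was −0.41, and without Angptl2+/+ replicate 2 it was −0.84. These were the ends of the range with each library left out in turn.

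Lgi4 encodes the LGI protein of Schwann cells, and mice that lack it, such as the claw paw mutant, myelinate peripheral nerves late and poorly. It is also among the candidate genes that the study reported as decreased in Angptl2-/- mice from these same libraries. Because the libraries are the same, the direction of Lgi4 here is not independent evidence. The study measured its candidates again by quantitative RT-PCR, and its text names others, but not Lgi4, as markedly downregulated in that assay. The gene (ENSMUSG00000036560) lies at chr7:31059342-31070935 on the plus strand. The study's primers are shown because they fix which part of the gene that assay read: they match chr7:31063563-31063581 (forward) and chr7:31063674-31063696 (reverse), both inside exon 6 of the 9 exons of the longest coding transcript, and within its coding sequence. The 134 bases between their outer ends, from GENCODE M21 with the primer sites in capitals, have a GC content of 59.0%.
Lgi4 forward primer: CCTCCGTGGTAACCCGTTC
Lgi4 reverse primer: GGTGATTCAGTTGTATCTGAGCA
Lgi4 amplicon: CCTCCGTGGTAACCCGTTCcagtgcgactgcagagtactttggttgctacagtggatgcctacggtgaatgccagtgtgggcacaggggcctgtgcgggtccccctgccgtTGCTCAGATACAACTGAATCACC
Of the 4 annotated Lgi4 transcripts, 3 hold both primer sites, and 1 annotated for nonsense-mediated decay lacks the reverse site.

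Lgi4 RNA was scarce in these brain samples, at percentile 19.2 of the mean FPKM of all genes tested. Its level was 1.38, 0.969 and 0.799 FPKM in Angptl2-/- replicates 1, 2 and 3, against 1.52, 2.30 and 1.26 FPKM in Angptl2+/+ replicates 1, 2 and 3. These levels rest on 121, 75 and 60 fragments in the Angptl2-/- libraries and 124, 187 and 98 in the Angptl2+/+ libraries, with a counting error of 7.31 to 12.9% a library. The 2 lowest libraries were Angptl2-/-, but Angptl2-/- replicate 1 lay above Angptl2+/+ replicate 3. Lgi4 averaged 1.05 ± 0.297 FPKM in Angptl2-/- and 1.69 ± 0.540 FPKM in Angptl2+/+ (SD, n = 3 each), which makes a log2 fold change of −0.63 ± 0.29 (SE; limma adjusted p = 0.328, exact permutation p = 0.2). With a pseudocount of 1 in place of 0.1, which weighs more on a gene this low, the log2 fold change was −0.38. Without Angptl2+/+ replicate 2, the library with the most Lgi4, it was −0.40, and without Angptl2-/- replicate 1 it was −0.83. These 2 were the ends of the range with each library left out in turn. Between samples Lgi4 varied more than any other of the 7 genes, with a coefficient of variation of 28.3% in Angptl2-/- and 31.9% in Angptl2+/+.

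The 3′ part of Lgi4 overlaps Fxyd3 on the opposite strand for 2764 bases, and 43.3% of the 75-base stretches of the Lgi4 transcripts also occur, as reverse complement, in Fxyd3 transcripts. The strand setting of the counting is not given in the sources used here, so fragments of this overlap cannot be told apart by gene. If the counting left such fragments out, the level and fragment counts of Lgi4 are understated, which was not tested. Fxyd3, an ion transport regulator of epithelia, was listed at 0 to 0.0489 FPKM. On the other side of Lgi4, Fxyd7, a brain regulator of the sodium pump 7874 bases away on the opposite strand, had a log2 fold change of −0.46 (limma adjusted p = 0.273).

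Among the receptors, Adam11 was the gene whose genotypes did not overlap. ADAM11 is a neuronal receptor that, in mouse cerebellum, places Kv1 channels at the basket cell terminals around Purkinje cells. The gene (ENSMUSG00000020926, chr11:102761439-102780262, plus strand) was at 18.4, 16.7 and 14.8 FPKM in Angptl2-/- replicates 1, 2 and 3, against 27.5, 23.6 and 24.7 FPKM in Angptl2+/+ replicates 1, 2 and 3. The highest Angptl2-/- library was below the lowest Angptl2+/+ library. Adam11 averaged 16.7 ± 1.79 FPKM in Angptl2-/- and 25.3 ± 1.98 FPKM in Angptl2+/+ (SD, n = 3 each), with a log2 fold change of −0.60 ± 0.12 (SE; limma unadjusted p = 0.00126, adjusted p = 0.273, exact permutation p = 0.1, the smallest that 3 against 3 can give). It was lower in 3 of 3 Angptl2-/- libraries, and the difference exceeded the spread between samples but not the adjusted threshold. With each library left out in turn, its log2 fold change lay between −0.67 and −0.52. The library with the most cerebellum markers, Angptl2+/+ replicate 1 at 142.7 FPKM against 48.4 to 56.7 FPKM in the Angptl2-/- libraries and 49.1 and 50.9 FPKM in the other Angptl2+/+ libraries, also had the most Adam11, and without it the value was −0.54. Among the libraries with Ddx3y, Adam11 was at 18.4 and 14.8 FPKM in Angptl2-/- and 24.7 FPKM in Angptl2+/+. Among those without it, Adam11 was at 16.7 FPKM in Angptl2-/- and 27.5 and 23.6 FPKM in Angptl2+/+. Because the genotypes did not overlap, any split of the libraries gives this direction, and the part of sex in Adam11 was not tested.

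Adam22 encodes the receptor of LGI1 at synapses and of LGI4 on axons, and mice without it have seizures and thin peripheral myelin. The gene (ENSMUSG00000040537, chr5:8072352-8368160, minus strand) was at 20.1, 23.0 and 25.4 FPKM in the Angptl2-/- libraries, against 19.2, 18.7 and 24.3 FPKM in the Angptl2+/+ libraries. Replicate 3 was the highest in each genotype, and the groups overlapped. Adam22 averaged 22.9 ± 2.62 FPKM in Angptl2-/- and 20.7 ± 3.11 FPKM in Angptl2+/+ (SD, n = 3 each), which makes a log2 fold change of 0.14 ± 0.14 (SE; limma adjusted p = 0.620, exact permutation p = 0.4). The value was 0.06 without Angptl2-/- replicate 3, 0.07 without Angptl2+/+ replicate 2, 0.09 without Angptl2+/+ replicate 1, 0.23 without Angptl2-/- replicate 1 and 0.26 without Angptl2+/+ replicate 3. It has the most annotated transcripts of the 7 genes, 24 of which 20 are coding, and a level per gene does not tell them apart.

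Adam23, whose product binds LGI1 on the presynaptic side and LGI3 along axons, lies at chr1:63445891-63596276 on the plus strand (ENSMUSG00000025964). Its level was 8.94, 11.5 and 13.6 FPKM in the Angptl2-/- libraries, against 9.37, 9.05 and 12.9 FPKM in the Angptl2+/+ libraries. Each group held values on both sides of 10 FPKM. The means were 11.3 ± 2.34 FPKM in Angptl2-/- and 10.4 ± 2.14 FPKM in Angptl2+/+ (SD, n = 3 each), which makes a log2 fold change of 0.12 ± 0.20 (SE; limma adjusted p = 0.783, exact permutation p = 0.7). Its sign turned when Angptl2-/- replicate 3 was left out (−0.024). For the 6 genes other than Lgi4 the counting error was 1.29 to 2.70% in each library, under the spread between samples (7.85 to 28.6%).

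Per length, Adam22, Lgi3 and Lgi2 stood at the top in Angptl2-/- brains, at means of 22.9, 22.4 and 21.7 FPKM that did not differ beyond their spread. Adam11 at 16.7 FPKM came next and overlapped Lgi2 and, narrowly, Lgi3. Lgi1 at 12.7 FPKM and Adam23 at 11.3 FPKM overlapped each other, and Lgi4 at 1.05 FPKM was far below the rest. In Angptl2+/+ brains Lgi3 at 34.6 FPKM and Adam11 at 25.3 FPKM overlapped at the top. Lgi2 at 21.1 FPKM and Adam22 at 20.7 FPKM followed and overlapped each other. Adam22 reached 24.3 FPKM and so overlapped Lgi3 and Adam11 too, whose lowest values were 24.0 and 23.6 FPKM. Lgi1 at 10.8 FPKM and Adam23 at 10.4 FPKM also overlapped each other, and Lgi4 at 1.69 FPKM was again the lowest.

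The LGI genes were also compared as shares of their sum. The summed FPKM of the 4 LGI genes was 48.5 to 65.7 in Angptl2-/- and 54.7 to 78.6 in Angptl2+/+, which overlapped. Lgi3 made up 36.5 to 41.2% of that sum in the Angptl2-/- libraries and 44.0 to 55.6% in the Angptl2+/+ libraries, without overlap. Lgi1 took 20.6 to 23.3% in Angptl2-/- and 13.2 to 17.9% in Angptl2+/+, and Lgi2 took 36.0 to 39.3% in Angptl2-/- and 29.3 to 34.0% in Angptl2+/+, both without overlap. The FPKM levels of Lgi1, Lgi2 and Lgi3 themselves overlapped. Of single genes tested, 11.8% lay wholly below and 10.7% wholly above in Angptl2-/-. The shares of the 4 genes add to 100% in a library, so they are not separate results, and the share of Lgi4 overlapped (1.22 to 2.84% in Angptl2-/-, 1.77 to 4.20% in Angptl2+/+). They were not corrected for GC content, which differs between the genes (57.2% for Lgi3, 50.3% for Lgi2 and 44.7% for Lgi1). Lgi3 was the most abundant LGI gene in 5 of the 6 libraries, the exception being Angptl2-/- replicate 2, where Lgi2 was.

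**Figure D2:**
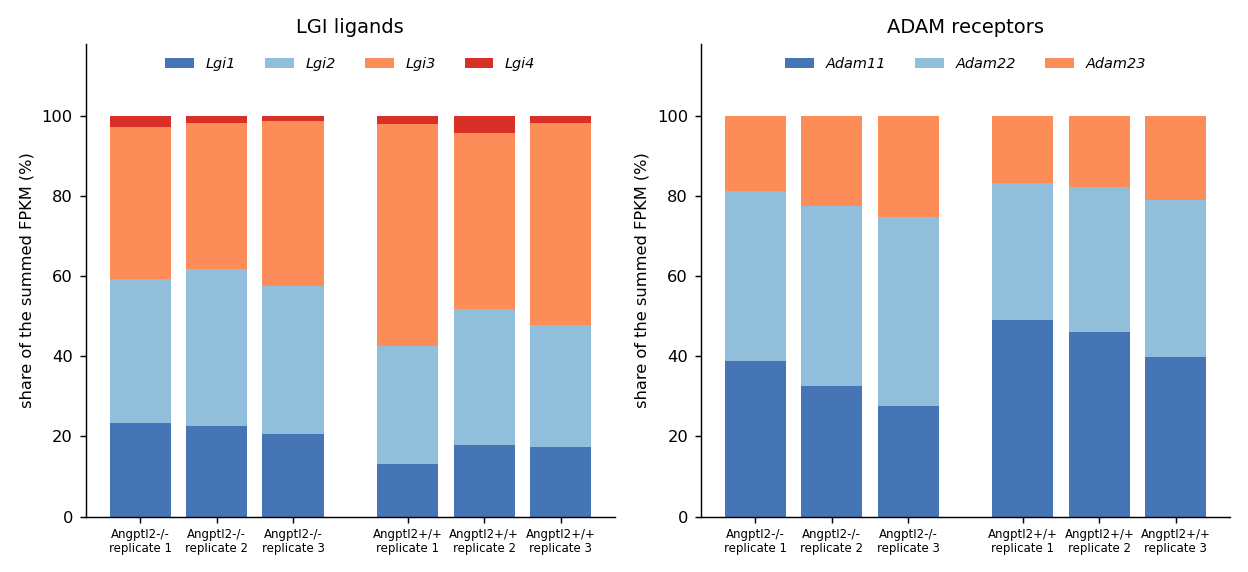
Share of each gene in the summed FPKM of the LGI ligands (left) and of the ADAM receptors (right), in %, 1 stacked bar a library, with Angptl2-/- left of Angptl2+/+. The shares are not corrected for GC content. Lgi3 covers 36.5 to 41.2% of the ligand sum in Angptl2-/- and 44.0 to 55.6% in Angptl2+/+, and Adam11 covers 27.6 to 38.8% of the receptor sum in Angptl2-/- and 39.9 to 49.0% in Angptl2+/+.

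For the receptors, summed FPKM was 47.5 to 53.8 in Angptl2-/- and 51.4 to 61.9 in Angptl2+/+. Adam22 was the most abundant receptor gene in all 3 Angptl2-/- libraries, and Adam11 was in all 3 Angptl2+/+ libraries. Adam11 was 0.585 to 0.915 times the level of Adam22 in Angptl2-/- and 1.01 to 1.43 times in Angptl2+/+. Adam22 over Adam23, 1.86 to 2.25 in Angptl2-/- and 1.88 to 2.06 in Angptl2+/+, overlapped between the genotypes, and so did Adam11 over Adam23, at 1.09 to 2.06 in Angptl2-/- and 1.91 to 2.93 in Angptl2+/+. For the ligand and receptor that meet beside the node, Lgi3 was 1.89 to 2.05 times Adam23 in Angptl2-/- and 2.66 to 4.66 times in Angptl2+/+, while for those of the synapse Lgi1 was 0.535 to 0.580 times Adam22 in Angptl2-/- and 0.508 to 0.539 times in Angptl2+/+, which overlapped. Of single genes tested, 11.8% lay wholly below and 10.7% wholly above in Angptl2-/-, so non-overlap is common in these libraries. These ratios are descriptions with 3 libraries a group and carry no test. They too were not corrected for GC content, at 60.1% for Adam11, 57.2% for Lgi3, 47.2% for Adam23 and 44.8% for Adam22.

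The base composition of the 7 genes ran with their fold changes. Adam11 (60.1% GC in its longest transcript), Lgi3 (57.2%) and Lgi4 (56.2%) were both the 3 GC-richest and the 3 with a negative log2 fold change. Lgi2 (50.3%), Adam23 (47.2%), Adam22 (44.8%) and Lgi1 (44.7%) had values above 0. Over all genes tested, the median log2 fold change was 0.24 for genes under 45% GC, 0.07 from 45 to 50%, −0.09 from 50 to 55%, −0.26 from 55 to 60% and −0.41 from 60% up. Of the 2652 genes from 55 to 60% GC, the range of Lgi3 and Lgi4, 23.8% were lower with an unadjusted p below 0.05, and of the 744 genes from 60% up, the range of Adam11, 41.0% were, with 39.1% wholly below in Angptl2-/-. The shift was not even over libraries: the median log2 deviation of genes from 60% GC up, less that of genes under 45%, was 0.02, −0.34 and −0.62 in Angptl2-/- replicates 1, 2 and 3, against 0.27, 0.52 and 0.18 in Angptl2+/+ replicates 1, 2 and 3.

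**Figure D3:**
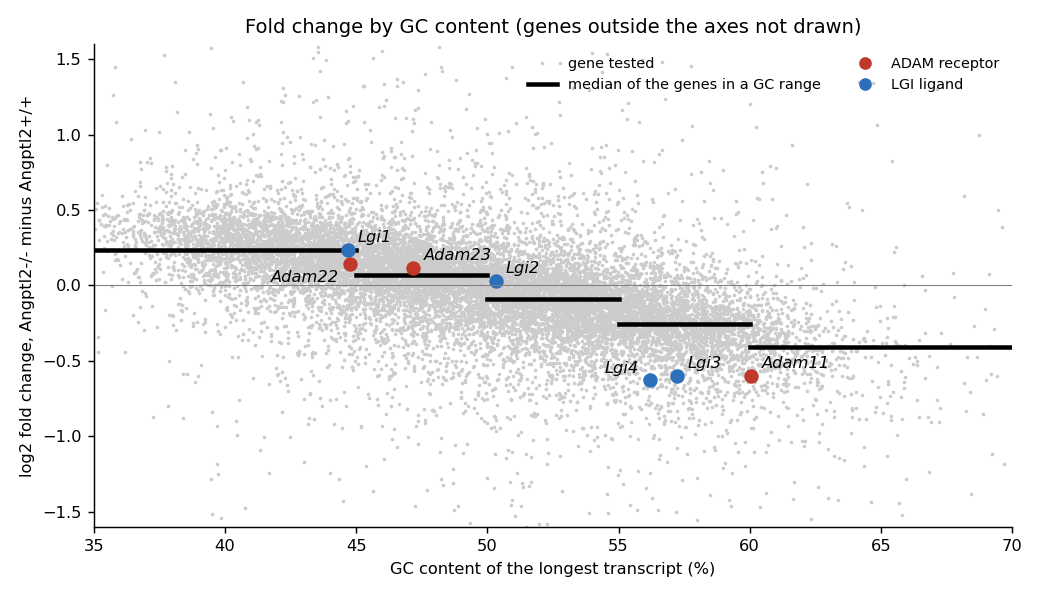
Log2 fold change (Angptl2-/- minus Angptl2+/+) against the GC content of the longest transcript in %, for the genes tested (grey), with the median in each GC range (black lines), the LGI ligands (blue) and the ADAM receptors (red). The median is −0.41 from 60% GC up and 0.24 under 45%, and Lgi3, Lgi4 and Adam11 lie below the line of their range.

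With each library corrected for this trend by a loess curve on GC content, the values of the GC-rich genes were smaller. The log2 fold change was −0.24 for Adam11 (limma adjusted p = 0.710), −0.33 for Lgi3 and −0.39 for Lgi4, and the Adam11 libraries of the genotypes then overlapped. The 4 other genes came to 0.08 for Lgi1, 0.07 for Lgi2, 0.05 for Adam23 and −0.01 for Adam22. With Angptl2+/+ replicate 1 left out as well, a combination chosen after the data were seen, Lgi3 was at −0.14, Adam11 at −0.17 and Lgi4 at −0.45.

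**Figure D4:**
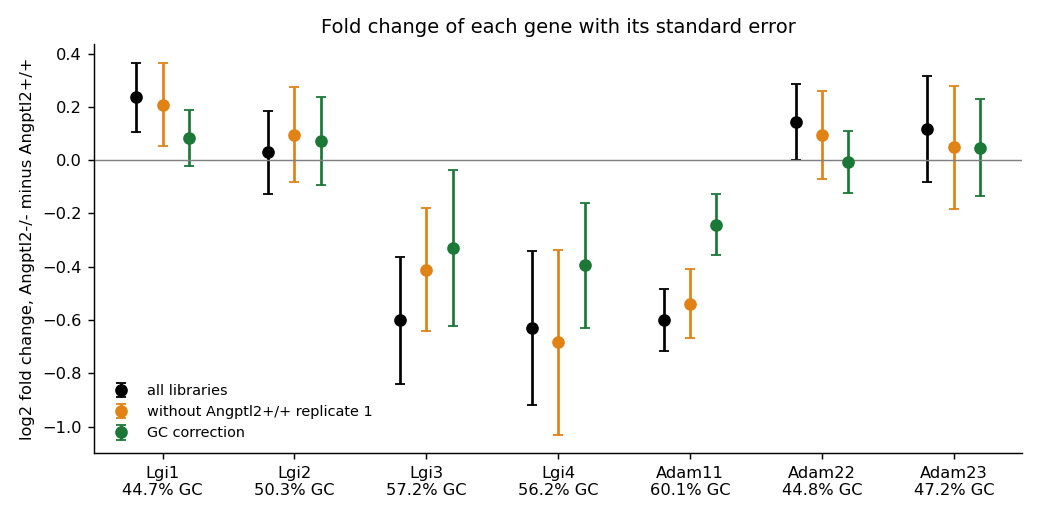
Log2 fold change (Angptl2-/- minus Angptl2+/+, vertical axis) with its standard error for each gene, with all 6 libraries (black), without Angptl2+/+ replicate 1 (orange) and after GC correction (green), and the GC content under each name. Adam11 is at −0.60, −0.54 and −0.24 in that order, and Lgi1, Lgi2, Adam22 and Adam23 lie within 0.24 of 0 in all 3.

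Markers of the cells and regions that use these genes moved with some of the values. All 12 markers of myelinating oligodendrocytes, the cells that secrete LGI3 in mouse brain, had a negative log2 fold change (median −0.59), and 3 of them were lower with an unadjusted p below 0.05, as were 9.12% of all genes tested. Their summed level was 642, 881 and 1231 FPKM in Angptl2-/- replicates 1, 2 and 3, against 2074, 1017 and 1021 FPKM in Angptl2+/+ replicates 1, 2 and 3. Angptl2-/- replicate 1 had both the least Lgi3 and the lowest sum, and Angptl2+/+ replicate 1 both the most Lgi3 and the highest sum, whereas Angptl2-/- replicate 3 had the second highest sum and less Lgi3 than Angptl2+/+ replicate 3. Mag, which encodes myelin-associated glycoprotein and is 1 of these markers, was at 29.6, 31.9 and 37.5 FPKM in Angptl2-/- and 92.8, 54.5 and 38.6 FPKM in Angptl2+/+. Lgi4 fell over Angptl2-/- replicates 1, 2 and 3 (1.38, 0.969 and 0.799 FPKM), where the summed level of the markers rose. In Angptl2+/+ replicates 1, 2 and 3 Lgi4 was at 1.52, 2.30 and 1.26 FPKM, so its highest library was not that of the highest sum. The part of oligodendrocyte content in the Lgi3 and Lgi4 values was not tested.

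Neuronal markers, which bear on Lgi1, Lgi2 and the receptors, summed to 950 to 1044 FPKM in Angptl2-/- and 838 to 1058 FPKM in Angptl2+/+. Those of astrocytes summed to 418 to 496 FPKM in Angptl2-/- and 404 to 522 FPKM in Angptl2+/+, and both sums overlapped between the genotypes. Single markers went both ways. The neuronal Stmn2 and Map2 (log2 fold change 0.33 each) and the astrocytic Slc1a3 (0.15) lay wholly above in Angptl2-/-. The neuronal Rbfox3 (−0.47) and the astrocytic Aldh1l1 (−0.62) lay wholly below. Of the 9 cerebellum markers 8 had a negative log2 fold change (median −0.78), with Gabra6 and Pcp2 at 0 in some libraries. Of these 9, 0 had an unadjusted p below 0.05. Cbln3, Gabra6 and Pcp2 were at 10.9, 10.5 and 6.16 FPKM in Angptl2+/+ replicate 1, and at most 0.276 FPKM in every other library. Summed, the 9 markers gave 142.7 FPKM there and 50.9 and 49.1 FPKM in Angptl2+/+ replicates 2 and 3. The Angptl2-/- sums, 48.4 to 56.7 FPKM, were thus far below Angptl2+/+ replicate 1 only. All 7 striatum markers had a positive log2 fold change (median 1.44), with sums of 122.8 to 237 FPKM in Angptl2-/- and 54.7 to 136.1 FPKM in Angptl2+/+. Lists for oligodendrocyte precursors (44.0 to 53.2 FPKM in Angptl2-/-, 40.6 to 62.7 FPKM in Angptl2+/+), excitatory neurons (656 to 783 FPKM in Angptl2-/-, 592 to 992 FPKM in Angptl2+/+), inhibitory neurons (297 to 365 FPKM in Angptl2-/-, 357 to 382 FPKM in Angptl2+/+), microglia (58.2 to 73.2 FPKM in Angptl2-/-, 66.4 to 77.6 FPKM in Angptl2+/+) and meninges (5.46 to 9.94 FPKM in Angptl2-/-, 3.81 to 14.5 FPKM in Angptl2+/+) overlapped. Single markers in these lists differed from their sums. Of the inhibitory neuron markers, Pvalb and Sst lay wholly below in Angptl2-/- (log2 fold change −1.57 and −0.37), as did 11.8% of all genes tested. Gad2 overlapped and had a log2 fold change of 0.61. Of the microglia markers, P2ry12 lay wholly above (0.44), as did 10.7% of all genes tested. The part of the cell type and region markers in the values of the neuronal LGI and ADAM genes was not tested.

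**Figure D5:**
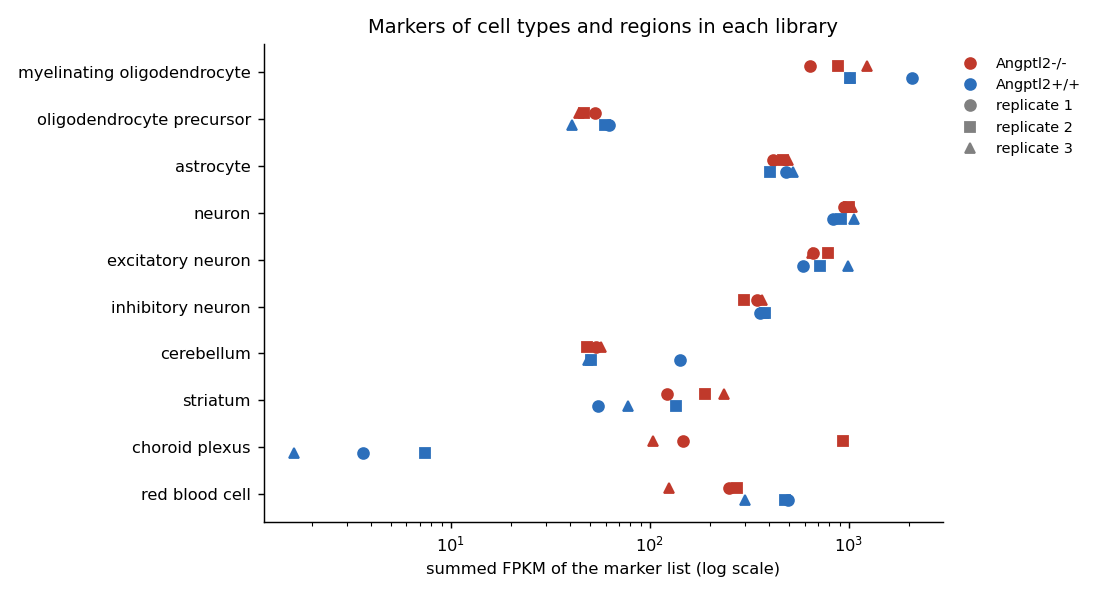
Summed FPKM of marker lists (horizontal log axis) in the 3 Angptl2-/- libraries (red, upper row of each list) and the 3 Angptl2+/+ libraries (blue, lower row), with shapes for replicate numbers. Choroid plexus markers are at 104.0 to 937 FPKM in Angptl2-/- and 1.64 to 7.39 FPKM in Angptl2+/+, and oligodendrocyte and cerebellum markers are highest in Angptl2+/+ replicate 1.

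Partners of the LGI and ADAM proteins were read from fixed lists, and 0 of their genes passed the adjusted threshold in limma. Of all genes tested, 7.09% were higher and 9.12% lower at an unadjusted p below 0.05. Of the 4 membrane-associated guanylate kinases that the ADAM22 tail can bind (Dlg1 to Dlg4), the log2 fold change was positive in 3 and negative in 1 (median 0.07), and 0 had an unadjusted p below 0.05. Dlg4, which encodes PSD-95 and was both the most abundant and the one with the smallest p, was at 58.5 ± 9.51 FPKM in Angptl2-/- and 71.1 ± 9.46 FPKM in Angptl2+/+ (SD, n = 3 each; log2 fold change −0.29, limma adjusted p = 0.392). Of 8 AMPA receptor and TARP genes, 4 were positive and 4 negative (median 0.12), with 1 higher with an unadjusted p below 0.05. That gene was Gria2 (36.8% GC), the subunit that keeps AMPA receptors closed to calcium, at 46.2 ± 6.29 FPKM in Angptl2-/- and 34.7 ± 5.69 FPKM in Angptl2+/+ (log2 fold change 0.41, limma adjusted p = 0.284). Of genes tested under 45% GC, 19.3% were higher at that unadjusted threshold. The most abundant, Gria1, was at 69.7 ± 5.69 FPKM in Angptl2-/- and 59.3 ± 7.58 FPKM in Angptl2+/+ (limma adjusted p = 0.386).

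On the axonal side, 8 Kv1 channel genes gave 4 positive and 4 negative log2 fold changes (median −0.09), with 2 lower at an unadjusted p below 0.05, where 9.12% of all genes tested were. Kcnab2, the most abundant and the one with the smallest p, encodes the main auxiliary subunit of Kv1 channels in brain. It was at 46.7 ± 1.68 FPKM in Angptl2-/- and 64.2 ± 8.33 FPKM in Angptl2+/+ (SD, n = 3 each; log2 fold change −0.45 ± 0.12, limma adjusted p = 0.273), without overlap, as in the 11.8% of all genes tested that lay wholly below, and its GC content of 58.0% is in the range of Lgi3 and Lgi4. Of 8 genes of the juxtaparanode and node, 6 had an unadjusted p below 0.05, 3 of them higher and 3 lower (median log2 fold change −0.07), where 7.09% of all genes tested were higher and 9.12% lower. The most abundant, Cntn1 (43.6% GC), an axonal adhesion protein of the paranode, was at 85.5 ± 9.46 FPKM in Angptl2-/- and 66.8 ± 3.28 FPKM in Angptl2+/+ (log2 fold change 0.35, limma adjusted p = 0.274). Cntn2 (56.0% GC), the adhesion protein that holds Kv1 channels at the juxtaparanode, had the smallest p and was at 9.42 ± 0.624 FPKM in Angptl2-/- and 12.4 ± 1.45 FPKM in Angptl2+/+ (log2 fold change −0.39, limma adjusted p = 0.273).

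Relatives by structure were read in the same way, beside the same shares of all genes tested (7.09% higher and 9.12% lower at an unadjusted p below 0.05). Of 9 other ADAM genes 6 passed the filter, with 3 positive and 3 negative log2 fold changes (median 0.02), and an unadjusted p below 0.05 in 1 that was higher and 1 that was lower. Adam10 (42.1% GC), the most abundant and an active sheddase, was at 25.4 ± 2.36 FPKM in Angptl2-/- and 20.98 ± 1.13 FPKM in Angptl2+/+ (SD, n = 3 each; log2 fold change 0.27, limma adjusted p = 0.290), whereas Adam15 (57.9% GC), another active protease, which had the smallest p, was at 6.37 ± 0.836 FPKM in Angptl2-/- and 8.20 ± 0.219 FPKM in Angptl2+/+ (log2 fold change −0.37, limma adjusted p = 0.274). Of 15 other leucine-rich repeat genes of synapse and axon, 9 were positive and 6 negative (median 0.10), and an unadjusted p below 0.05 in 2 that were higher and 3 that were lower. Lingo1 (58.0% GC), a co-receptor of Nogo receptors and the most abundant, was at 86.9 ± 11.0 FPKM in Angptl2-/- and 118.7 ± 27.3 FPKM in Angptl2+/+ (log2 fold change −0.43, limma adjusted p = 0.303). Flrt3 (42.2% GC), a ligand of latrophilins with the smallest p, was at 8.54 ± 1.28 FPKM in Angptl2-/- and 5.66 ± 0.511 FPKM in Angptl2+/+ (log2 fold change 0.58, limma adjusted p = 0.273). The other genes with EAR repeats, Adgrv1 and Tspear, were below the filter.

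Genes whose levels ran most like each of the 7 over the 6 libraries were picked by the smallest root mean square difference of log2 levels, each centred on its own mean, among 11721 protein-coding genes. For Lgi1 they were Vps13b, Aftph and Vps37a (0.02 each, against 0.18 for the spread of Lgi1 itself), and for Adam22 Csnk1g3, Acsl1 and Ndfip1 (0.03 each, against 0.17). Adam23 was followed by Rap1gds1, Apbb2 and Pkn2 (0.03 to 0.04, against 0.24), and Lgi2 by Ammecr1l, Nceh1 and Nfatc2ip (0.05 each, against 0.18). The nearest to Adam11 were Pcx, Plvap and Limk1 (0.04 to 0.05, against 0.32), which have 57.7, 60.6 and 57.6% GC. Lgi4 was matched less closely, by Rpl13a, Gar1 and S100a6 (0.07 to 0.08, against 0.45), which have 53.6, 57.0 and 52.0% GC. Lgi3 was matched least, by Tnfaip8l2, Pigz and Plekhh1 (0.13 to 0.15, against 0.42), which have 57.2, 57.1 and 52.7% GC. With 6 libraries and this many genes, such likeness is a description of these libraries.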

How the data were processed

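RNA of 6 brain samples was sequenced as paired ends on an Illumina HiSeq instrument. The table that the authors deposited holds 1 FPKM value for each gene in each library. The submitters' processing notes name mm8 and Bowtie 0.12.2, while the program that counted, its gene models and its use of strand are not given in those sources. GENCODE M21 (GRCm38) holds 54495 of the 54532 identifiers, and FPKM times its summed exon length gave whole fragments, within 0.05, for 96.6 to 96.8% of values above 0. These fragments set the counting error only. The deposited library totals followed median-ratio size factors (ratio 1.0211 to 1.0213), so the FPKM were already scaled between libraries, and mitochondrial genes took 3.31 to 5.75% of the fragments.

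The members and gene lists were chosen with earlier results of these data known. limma 3.58.1 in R 4.3.3 was fitted on log2(FPKM + 0.1) with an intensity trend, where the mean over libraries reached 0.5 FPKM, Angptl2-/- minus Angptl2+/+, with adjusted p-values over all of them and a threshold of 0.05; this scale understates the change of low genes. The fit was tested on simulated data. Exact permutation tests used all placements of the 6 libraries. Tables were made with pandas 2.3.3 and numpy 2.4.6 in Python 3.11.15, and figures with matplotlib 3.10.9.

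Named genes are the 7 members, the most abundant and the smallest-p gene of each list, the 3 nearest genes of each member, cell type markers, Angptl2, and neighbours. Mag, Snap25, Ddx3y, Ttr and Gapdh were named after their values were seen. The levels of 1 marker list are not reported here. The alternatives were pseudocounts of 1 and 0.01, no filter or a mean FPKM of at least 1, quantile and median-ratio scaling, scaling without mitochondrial and haemoglobin genes, no trend, robust moderation, voom, GC and length correction (loess, span 0.3), a replicate block and leaving out each library. Scaling to assigned fragments, the block with GC correction, and GC correction without Angptl2+/+ replicate 1 were added after the data were seen.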

Additional observations from a re-analysis of the deposited data

How the results depend on the processing

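Over 22 alternatives the log2 fold change kept its sign for Lgi1 (0.05 to 0.33), Lgi3 (−0.84 to −0.14), Lgi4 (−0.83 to −0.38) and Adam11 (−0.67 to −0.17), and the lowest adjusted p of any of the 7 genes was 0.183 (Adam11, without Angptl2-/- replicate 1). The sign turned for Lgi2 with length correction (−0.0033), for Adam22 with GC correction (−0.0055), with replicate block and GC correction (−0.0055) and with GC correction and Angptl2+/+ replicate 1 left out (−0.061), and for Adam23 with length correction (−0.038) and with that last combination (−0.025). With single libraries left out, Lgi2 ran from −0.059 to 0.18 and Adam23 from −0.024 to 0.28. Each value of turned sign was smaller than its standard error, and the cause was not tested.

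Genes past the adjusted threshold numbered 0. With the replicate block there was 1 (Ttr), with Angptl2+/+ replicate 1 left out 1 (Gapdh; 0 to 1 over the libraries left out), and with GC correction added to that 1. The replicate number is no pairing: same-numbered deviations correlated at 0.04, −0.07 and 0.16. Under the replicate block the lowest adjusted p of the 7 genes was 0.222 (Adam11). At an unadjusted p under 0.05, the counts of 1054 higher and 1355 lower genes became 507 and 516 with GC correction, 579 and 648 with GC correction and the replicate block together, and 309 and 323 with GC correction and Angptl2+/+ replicate 1 left out together. Leaving out single libraries gave 465 to 1373 higher and 790 to 1656 lower. Scaling without mitochondrial and haemoglobin genes moved the median of all genes to 0.06 and gave 1728 higher and 857 lower.

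With 3 samples a genotype the exact test cannot fall below 0.1, differences in tissue mixture and sex between the samples were not adjusted for, and Lgi4, at 60 to 187 fragments a library, is the gene that depth limits most.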
